A study of Drosophila melanogaster with 9 samples.

Results

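The mitochondrial ribosomal protein genes of Drosophila melanogaster were taken as every gene whose name begins with mRpL or mRpS followed by a number, where L stands for the large and S for the small ribosomal subunit. This rule found 73 of the 10245 genes in the deposited data, 47 of them mRpL and 26 mRpS. The division into large and small subunit was by name alone. All 73 were among the 8036 genes tested, which are those that reached at least 1 RPKM (read count scaled by transcript length in kilobases and by library size) in at least 3 libraries. The name rule itself uses no measured value.

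Mitochondria carry their own ribosomes, which translate the few messages of the mitochondrial genome. These messages encode subunits of the respiratory chain and the ATP synthase. The ribosomal RNAs come from the mitochondrial genome, whereas every mitochondrial ribosomal protein is made from a nuclear gene, translated in the cytosol and imported. Some of these proteins have counterparts in bacterial ribosomes, and others are found only in mitochondria. In the gut, absorptive enterocytes, secretory enteroendocrine cells, progenitor cells and the visceral muscle all contain mitochondria, so the genes mark no single cell type.

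The libraries came from whole guts dissected from adult females of the wild-type strain Oregon R that had been kept on 10% glucose, on agar or on standard laboratory medium. Each diet had 3 biological repeats, numbered 1 to 3, and no genetic change or drug was part of the design. Total RNA was taken with Trizol and converted to stranded mRNA libraries. The age of the flies, the time on each diet, and the number of guts in a library are not given in the labels. The p-values measure the spread among these repeats. In whole guts, fewer cells of a type and less RNA per cell cannot be told apart.

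Library totals, recovered from the steps between low values, ran from 34899709 to 48389188 reads. The median tested gene was 0.33 higher on glucose and 0.36 higher on agar than on standard medium on the deposited log2 scale, and its difference between glucose and agar was -0.025. Results are therefore given as deposited and after median-ratio scaling, which brings the median deviation of the tested genes to a common value in every library. Within diets, Pearson's r across genes ran from 0.976 to 0.986 on glucose, from 0.952 to 0.974 on agar and from 0.952 to 0.976 on standard medium. Standard replicates 2 and 3 stood apart in 110 histone genes, whose median was 3.98 and 3.32 above the genes' own means on the log2 scale, against -0.19 in standard replicate 1. The difference of agar replicate 3 from agar replicates 1 and 2 varied with transcript length, as described with the members' values there. Other libraries were not examined in this way. The 4 enterocyte markers, which include trypsin-like digestive enzymes, summed to 5996 to 13060 RPKM over the 9 libraries. The 6 muscle markers summed to 310 to 453 RPKM and the 4 fat body markers to 259 to 398 RPKM. The sums for the 2 ovary and 2 haemocyte markers found were at most 2.33 and 0.267 RPKM, and none of those genes reached the filter. As deposited, some markers were called in the same comparisons as the members. The progenitor marker esg was higher by 0.66 on glucose and 0.64 on agar, and the enteroendocrine marker Tk by 0.54 on glucose and 0.45 on agar, on the log2 scale (limma adjusted p of 0.0160, 0.00594, 0.0288 and 0.0318). Of the 4 enterocyte markers mex1 was higher on both diets and the protease gene Jon25Bi lower on both. On agar 2 of 6 muscle markers, Mf and Tm1, were higher and 1 of 4 fat body markers, Yp2, was lower. Of all tested genes 23.1% were called higher and 0.908% lower on glucose, and 38.2% and 2.23% on agar, than on standard medium. After median-ratio scaling no marker was called higher, while 1 enterocyte marker on both diets and 1 fat body marker on agar were lower. The part of marker levels in the results was not tested.

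The mitochondrial ribosomal protein genes were expressed at moderate and closely grouped levels. Their median geometric mean over the 9 libraries was 7.24 RPKM, with quartiles of 5.62 and 9.36 RPKM, and the median was 7.41 RPKM for the 47 mRpL genes and 7.10 RPKM for the 26 mRpS genes. All tested genes had a lower median, 5.58 RPKM, and wider quartiles of 2.54 and 15.1 RPKM. A total of 55 of the 73 members lay above the median of all tested genes. The highest and the lowest member differed 9.12-fold, although their products enter the same particle.

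mRpS5, which in bacteria lines the path of the mRNA into the small subunit, was the highest member, with 20.1, 20.2 and 24.2 RPKM in glucose replicates 1 to 3, 18.9, 20.5 and 29.9 RPKM in the agar replicates, and 16.8, 19.4 and 19.9 RPKM in the standard replicates. The next in order were mRpL53, mRpS7, mRpL28, mRpL30 and mRpL37, with a geometric mean of 17.3 RPKM for mRpL53 and less for the others. At the other end stood mRpS14, a protein of the small subunit's head, with 2.47, 2.84 and 2.52 RPKM on glucose, 2.74, 2.38 and 0.749 RPKM on agar, and 5.01, 1.94 and 2.02 RPKM on standard medium. It was followed upwards by mRpL16, mRpL48, mRpL11, mRpL27 and mRpL39. The 3 paralogs mRpS18A, mRpS18B and mRpS18C lay in the middle and lower part of the order, at 6.35 to 9.78, 4.86 to 7.25 and 4.17 to 6.29 RPKM over the 9 libraries.

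**Figure D1:**
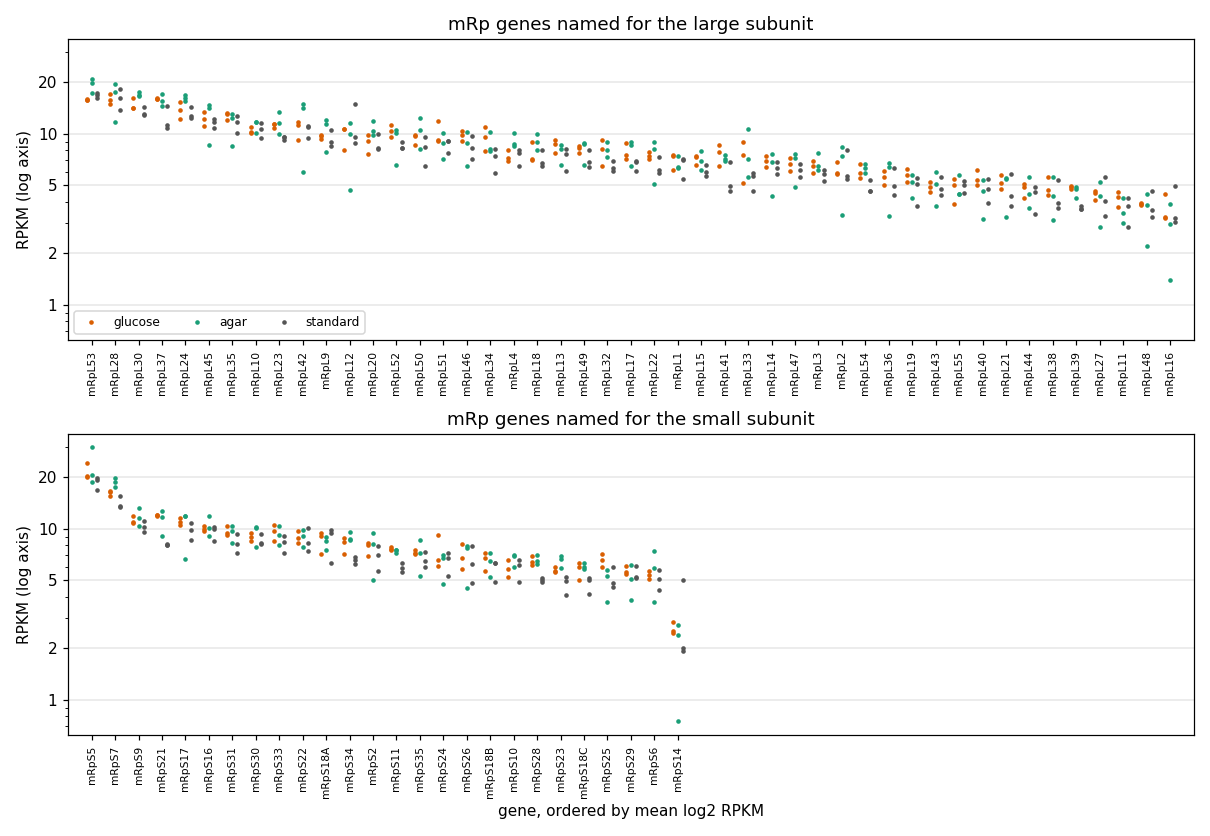
RPKM (log axis) of the 73 mitochondrial ribosomal protein (mRp) genes, the 47 mRpL genes above and the 26 mRpS genes below, each gene with 3 points per diet, 1 per library. The quartiles of the geometric means are 5.62 and 9.36 RPKM, and single agar or standard libraries depart from the other points for mRpS14, mRpL16, mRpL12, mRpL2 and mRpL42.

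As deposited, the members varied little over the 9 libraries. The ranges and SDs over the 9 libraries include the shift of the median gene between standard medium and the other diets. They are not given after scaling. The highest library exceeded the lowest by less than 2-fold for 65 of the 73 genes, while 38.4% of all tested genes varied 2-fold or more. The 8 exceptions were mRpL42, mRpL12, mRpL33, mRpL2, mRpL36, mRpL48, mRpL16 and mRpS14. Over the 9 libraries the median SD of a member was 0.22 on the log2 scale, against 0.29 for all tested genes. The median within-diet SD was 0.22 for members and 0.21 for all tested genes, so the members varied about as much as other genes between repeats of a diet.

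Summed over the 73 genes, expression was 613 ± 10.4 RPKM on glucose, 618 ± 66.9 RPKM on agar and 550 ± 46.0 RPKM on standard medium (SD, n = 3 each). The glucose libraries all lay above the standard libraries, while the sums on agar and on standard medium overlapped, the lowest agar library (541 RPKM) lying below 2 of the standard libraries (595 and 553 RPKM). As a share of all RPKM in a library, the members made up 0.180% ± 0.00341 on glucose, 0.188% ± 0.00879 on agar and 0.136% ± 0.00522 on standard medium (SD, n = 3 each). The share also depends on the levels of all other genes in a library. The summed mRpL genes over the summed mRpS genes, each as a mean per gene, gave a ratio of 0.968 ± 0.0188 on glucose, 0.972 ± 0.0675 on agar and 0.998 ± 0.0283 on standard medium (SD, n = 3 each), and these ranges overlapped.

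The first comparison set the sugar diet against agar. No member was called higher or lower in glucose guts than in agar guts at an adjusted p under 0.05 (limma with Benjamini-Hochberg adjustment over the 8036 genes). Of all tested genes 0.0373% were called higher and 0.236% lower, so few calls were made at all. At an unadjusted p under 0.05, 1 member (1.37%) was higher and 2 (2.74%) were lower, against 2.96% and 7.32% of all tested genes. The median difference over the members was 0.043 on the log2 scale, against -0.025 for all tested genes. A positive difference was found in 45 of 73 members and in 44.8% of all tested genes. With scaling the member median was 0.083 and again no member was called, while 0.0373% of all genes were higher and 0.124% lower. The 95% intervals of 70 of the 73 differences, each taken alone, lay within 2-fold in either direction. The exceptions were mRpL12, mRpL16 and mRpS14.

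mRpL53, a large-subunit protein specific to mitochondria, had the smallest p between these diets. It had 15.8, 15.8 and 16.0 RPKM on glucose against 19.9, 21.1 and 17.4 RPKM on agar, a log2 difference of -0.29 ± 0.10 (SE) with a limma p of 0.0191 and an adjusted p of 0.345. The glucose libraries all lay below the agar libraries, but the adjusted p did not pass. mRpS25, of the small subunit, had 6.53, 7.11 and 5.96 RPKM on glucose against 5.32, 5.70 and 3.71 RPKM on agar, a difference of 0.43 ± 0.18 with an adjusted p of 0.442. mRpL4 and mRpL24, whose bacterial counterparts line the exit tunnel and its mouth, differed by -0.30 (adjusted p of 0.446) and -0.24 (adjusted p of 0.544), and mRpL20 by -0.27. The most positive differences were those of mRpS14, at 0.62, and mRpL16, at 0.52, neither of them near the threshold (adjusted p of 0.813 and 0.755). Their agar values were set apart by replicate 3.

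Glucose guts were then compared with guts on standard medium, which also entered the comparison of agar with standard medium, so these results share libraries. As deposited, 5 of 73 members (6.85%) were higher on glucose and none lower, against 23.1% of all tested genes called higher and 0.908% called lower. No member had a negative difference with an unadjusted p under 0.05. The members' median difference was 0.17, below the 0.33 of all tested genes. Of the 73 members 65 lay above 0, against 86.2% of all tested genes, and only 9 lay above the median of all genes. After median-ratio scaling the member median was -0.15, and only 9 of 73 were positive, against 51.7% of all tested genes. No member was then called, whereas 0.336% of all genes were called higher and 0.622% lower. At an unadjusted limma p under 0.05 after scaling, 7 members (9.59%) were lower and none higher, against 10.5% of all tested genes lower and 6.65% higher, so the share of lower members was near that of all genes. The direction of the group relative to standard medium thus turned with the scaling. Under both, the member median stood 0.16 below that of all tested genes, a distance that the scaling leaves as it is. By library, the median deviation of members minus that of all genes was 0.23, 0.14 and 0.038 in standard replicates 1 to 3. In glucose replicates 1 to 3 it was 0.0028, 0.017 and -0.051. The pooled SD of this value within diets was 0.13, so the distance of 0.16 is uncertain.

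**Figure D2:**
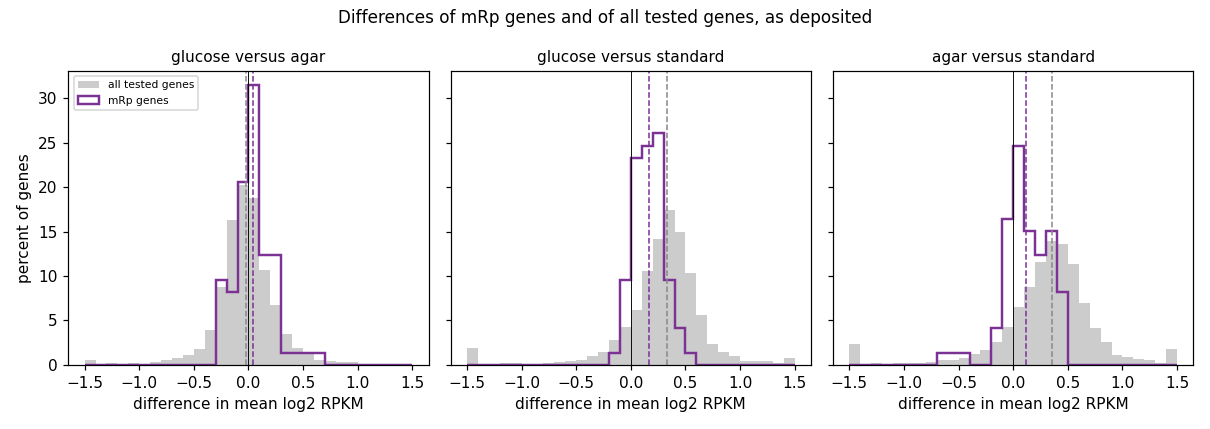
Histograms of the difference in mean log2 RPKM, as deposited, for glucose versus agar (left), glucose versus standard (middle) and agar versus standard (right), with the percent of genes on the vertical axis; the purple line is the 73 mRp genes, grey bars are all 8036 tested genes (values past 1.5 are drawn in the end bins), and dashed lines are medians. From left to right the member medians are 0.043, 0.17 and 0.11, and those of all genes are -0.025, 0.33 and 0.36.

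The 5 members called on glucose were mRpS21, mRpL39, mRpS11, mRpS28 and mRpL37. mRpS21 is a small-subunit protein with a bacterial counterpart, and it had 12.1, 11.9 and 12.1 RPKM on glucose against 8.19, 8.02 and 8.05 RPKM on standard medium. The glucose libraries lay well above the standard libraries and each group was tight. The fold was 1.48, a log2 difference of 0.57 ± 0.13 (SE) with a limma adjusted p of 0.0219. mRpL39, a large-subunit protein specific to mitochondria, had 4.96, 4.76 and 4.88 RPKM on glucose against 3.81, 3.64 and 3.63 RPKM on standard medium. Again the groups did not overlap, and the difference was 0.40 ± 0.09 with an adjusted p of 0.0221.

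mRpS11, which in bacteria forms part of the small subunit's platform, averaged 7.66 ± 0.132 RPKM on glucose and 5.94 ± 0.359 RPKM on standard medium (SD, n = 3 each), a difference of 0.37 with an adjusted p of 0.0226. For mRpS28, of the small subunit, the mean was 6.48 ± 0.411 RPKM on glucose and 5.01 ± 0.138 RPKM on standard medium (SD, n = 3 each), and the difference was again 0.37, with an adjusted p of 0.0266. mRpL37, of the large subunit, had 16.2, 16.1 and 16.0 RPKM on glucose against 10.9, 14.5 and 11.3 RPKM on standard medium, a difference of 0.41 with an adjusted p of 0.0492. In all 3 genes every glucose library exceeded every standard library. mRpL41, with a larger difference of 0.50, missed the threshold (adjusted p of 0.0556, and 0.0320 with the replicate number as a block), and 1 standard library, at 6.88 RPKM, lay within its glucose range of 6.52 to 8.58 RPKM. The most negative differences were -0.16 for mRpL12, -0.082 for mRpL53 and -0.053 for mRpL55, with adjusted p of 0.722, 0.528 and 0.794. For mRpL53 every glucose library (15.8, 15.8 and 16.0 RPKM) nevertheless lay below every standard library (16.8, 17.3 and 16.2 RPKM). After scaling its difference was -0.40, with an adjusted p of 0.102, or 0.0501 with the replicate block as well. After scaling the 5 called genes differed by 0.047 to 0.25, with adjusted p from 0.344 to 0.846.

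The number called on glucose changed when single libraries were left out. Without glucose replicate 1, 2 or 3, or without standard replicate 3, it was 0, and without standard replicate 2 it was 1. The shares of all tested genes called in these fits are not given here, so the change cannot be read as particular to the members. With the replicate number as a block, 10 members (13.7%) were higher, against 43.2% of all tested genes, and the 5 added were mRpL41, mRpS34, mRpS23, mRpL34 and mRpL13.

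Agar guts were last compared with guts on standard medium. As deposited, 10 of 73 members (13.7%) were higher on agar and none lower, against 38.2% of all tested genes called higher and 2.23% lower. The 10 were 6 small-subunit genes (mRpS28, mRpS34, mRpS7, mRpS23, mRpS11 and mRpS21) and 4 large-subunit genes (mRpL39, mRpL30, mRpL54 and mRpL37). No negative member difference had an unadjusted p under 0.05. The member median was 0.11 against 0.36 for all tested genes. Of the 73 members 55 lay above 0, against 84.6% of all tested genes, and 9 lay above the median of all genes. After scaling the median was -0.25 and no member was called, while 1.88% of all genes were called higher and 2.87% lower. At an unadjusted limma p under 0.05, 11 members (15.1%) were then lower and none higher, against 12.6% of all tested genes lower and 10.1% higher.

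mRpS34, a small-subunit protein specific to mitochondria, had 8.57, 8.75 and 9.55 RPKM on agar against 6.54, 6.83 and 6.23 RPKM on standard medium, and 7.09, 8.85 and 8.40 RPKM on glucose. The agar libraries all lay above the standard ones, at 1.37-fold (log2 difference of 0.45 ± 0.11 SE, limma adjusted p of 0.0139). Its deposited values convert to whole reads, which were 230, 216 and 294 on agar and 224, 212 and 195 on standard medium before allowance for the library totals. It was the only one of the 10 that stayed called when each of the 9 libraries was left out in turn. The scaled difference was 0.094, with an adjusted p of 0.645.

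mRpS7, whose bacterial counterpart starts the assembly of the small subunit's head, had 17.6, 18.8 and 19.7 RPKM on agar against 13.3, 15.5 and 13.5 RPKM on standard medium. mRpS23, specific to mitochondria, had 6.92, 6.70 and 5.91 RPKM on agar against 4.98, 5.23 and 4.10 RPKM on standard medium. mRpS28 had 6.48, 7.01 and 6.19 RPKM on agar against 5.14, 5.01 and 4.87 RPKM on standard medium. In these 3 genes the groups did not overlap, and the log2 differences were 0.41 for mRpS7, 0.45 for mRpS23 and 0.39 for mRpS28, with adjusted p of 0.0160, 0.0171 and 0.0131.

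mRpS11 averaged 7.41 ± 0.150 RPKM on agar and 5.94 ± 0.359 RPKM on standard medium, a difference of 0.32. mRpS21 averaged 11.2 ± 1.91 RPKM on agar and 8.09 ± 0.0924 RPKM on standard medium, a difference of 0.45, and its agar libraries were the more scattered. Among the large-subunit genes, mRpL39 averaged 4.61 ± 0.362 RPKM on agar and 3.69 ± 0.101 RPKM on standard medium, a difference of 0.32 (SD, n = 3 each throughout). In all 3 of these genes the agar libraries lay above the standard ones, with limma adjusted p of 0.0185 for mRpS11, 0.0242 for mRpS21 and 0.0239 for mRpL39. mRpL30, with a bacterial counterpart, averaged 17.1 ± 0.392 RPKM on agar and 13.4 ± 0.824 RPKM on standard medium (adjusted p of 0.0247). mRpL54, specific to mitochondria, averaged 6.29 ± 0.383 RPKM on agar and 4.88 ± 0.416 RPKM in the standard libraries (adjusted p of 0.0280). Neither gene's groups overlapped, whereas for mRpL37 the lowest agar library, at 14.5 RPKM, was level with the highest standard library (difference of 0.37, adjusted p of 0.0468).

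**Figure D3:**
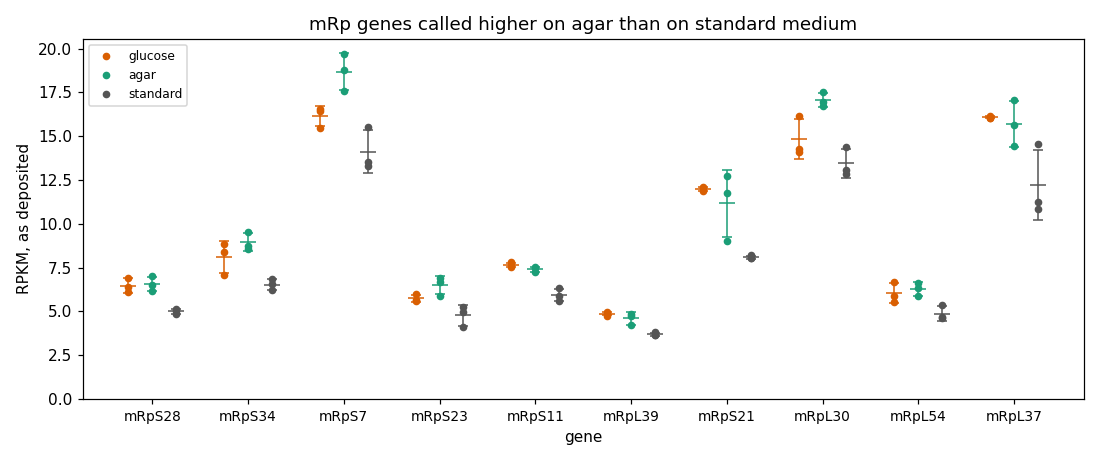
RPKM as deposited, on an axis from 0, of the 10 mitochondrial ribosomal protein genes called higher on agar than on standard medium, with glucose, agar and standard from left to right; points are libraries, dashes the mean and bars the SD (n = 3). Agar points lie above standard points except for mRpL37, and the folds of agar over standard run from 1.25 to 1.37.

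Other members with large differences did not pass. mRpL33, a large-subunit protein with a bacterial counterpart, had 7.15, 5.61 and 10.7 RPKM on agar against 5.93, 4.61 and 5.70 RPKM on standard medium, a difference of 0.49 with an adjusted p of 0.163. The most negative differences were -0.67 for mRpS14, -0.53 for mRpL16 and -0.41 for mRpL12, with adjusted p of 0.310, 0.253 and 0.342. mRpL12, the stalk protein that recruits translation factors to the large subunit, had 11.5, 10.0 and 4.69 RPKM on agar against 14.9, 9.63 and 8.86 RPKM on standard medium. Its lowest value was in agar replicate 3 and its highest in standard replicate 1, and mRpS14 and mRpL16 had their extremes in the same libraries.

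The number called on agar was 1 without agar replicate 2, 3 without standard replicate 3 and 6 without standard replicate 2. The shares of all tested genes called in these fits are likewise not given. With the replicate number as a block, 16 members (21.9%) were higher, against 51.2% of all tested genes. With the block and median-ratio scaling together, 2 members (2.74%) were lower, against 8.75% of all tested genes. These were mRpL12, at -0.77 with an adjusted p of 0.0478, and mRpS29, at -0.51 with an adjusted p of 0.0487. mRpS29 is the GTP-binding protein known in mammals as DAP3, and it had 6.15, 5.08 and 3.84 RPKM on agar against 6.09, 5.23 and 5.13 RPKM on standard medium.

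Members at the functional centres of the ribosome, chosen by role, had mostly small differences as deposited. mRpL2 and mRpL3, which in bacteria help to shape the peptidyl transferase centre, differed from standard medium by -0.03 (mRpL2) and 0.16 (mRpL3) on glucose and by -0.09 (mRpL2) and 0.23 (mRpL3) on agar. The stalk-base proteins mRpL10 and mRpL11 differed by -0.02 (mRpL10) and 0.23 (mRpL11) on glucose and by 0.09 (mRpL10) and -0.02 (mRpL11) on agar. mRpL45, which in mammals anchors the ribosome to the inner membrane, differed by 0.08 on glucose and 0.07 on agar. On glucose and on agar the small-subunit gene mRpS2 differed by 0.18 and 0.10, and mRpS35, also of the small subunit, by 0.15 and 0.07. mRpL44, a protein with a ribonuclease III-like fold, differed by 0.16 on glucose and 0.09 on agar. No gene of this role list other than mRpS7 was called in any of the 3 comparisons, and the smallest other adjusted p was 0.0794, for mRpL4 on agar against standard medium (a difference of 0.30). With the replicate number as a block mRpL4 was called higher there (adjusted p of 0.0354), and with the block and scaling together mRpL12 and mRpS29 were called lower, as given with the agar comparison.

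The deviation of each member from its own mean over the 9 libraries showed where the spread lay. The median deviation was 0.10, 0.11 and 0.04 in glucose replicates 1 to 3, 0.17, 0.17 and -0.19 in the agar replicates, and 0.04, -0.07 and -0.24 in the standard replicates, on the log2 scale. The corresponding medians over all tested genes were 0.09, 0.09 and 0.10 on glucose, 0.11, 0.16 and 0.13 on agar, and -0.19, -0.21 and -0.28 on standard medium. Members lay within 0.056 of the median gene in the glucose libraries, in agar replicates 1 and 2 and in standard replicate 3, stood 0.32 below it in agar replicate 3, and stood 0.23 and 0.14 above it in standard replicates 1 and 2. In agar replicate 3, 31 of the 73 members had their lowest value, against 12.62% of all tested genes. In standard replicate 3, 29 of the 73 members had theirs, against 34.98% of all tested genes, and 72 of 73 lay below their own mean. The share of all tested genes below their own mean there is not given. Their median deviation of -0.28 was below the -0.24 of the members.

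**Figure D4:**
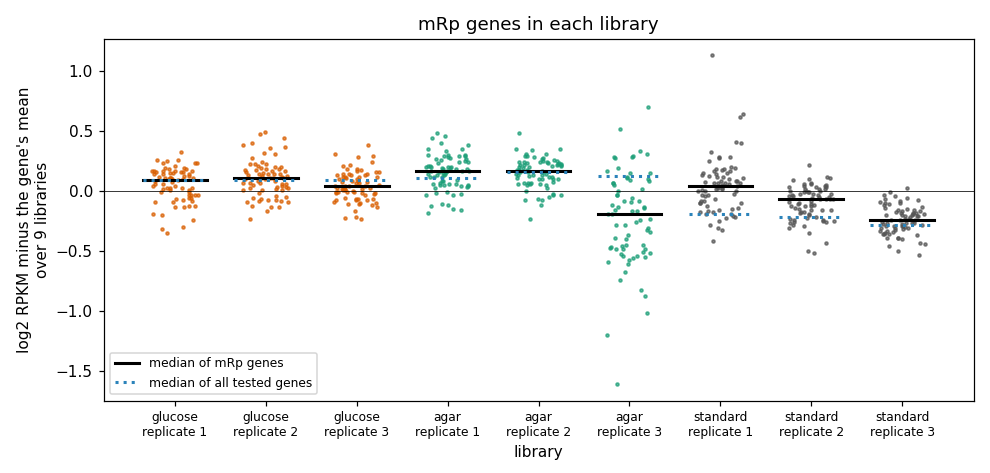
Each point is 1 of the 73 mRp genes in 1 library, as log2 RPKM minus the gene's mean over the 9 libraries, for glucose, agar and standard replicates from left to right; solid bars are member medians and dotted bars the medians of all 8036 tested genes. Member medians are 0.17, 0.17 and -0.19 in agar replicates 1 to 3, where the dotted bars stay between 0.11 and 0.16.

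Agar replicate 3 also had the widest spread of members. Their interquartile range there was 0.54 on the log2 scale, against 0.15 to 0.25 in the other 8 libraries, and it was 0.53 for all tested genes there. Relative to the mean of agar replicates 1 and 2, the median member was -0.37 in agar replicate 3, and 60 of 73 members (82.2%) were below 0, against a median of 0.02 and 48.2% below 0 for all tested genes. The 5 members at or below -1 were mRpS14 (-1.77), mRpL16 (-1.28), mRpL42 (-1.27), mRpL2 (-1.24) and mRpL12 (-1.19), whereas mRpL33 (0.76) and mRpS5 (0.60) were the highest. The same difference varied with transcript length. When the tested genes were split into 10 classes of near-equal size by length, the median over all genes was -0.20 in class 2, counted from the shortest, and 0.37 in class 10. The members are short, with mean transcript lengths from 327 to 1953.5 bases, and 72 of them were in classes 1 to 4. In those classes, in order, the member medians were -0.29, -0.42, -0.38 and -0.28, against 0.09, -0.20, -0.17 and -0.14 for all genes. The part of length in the comparisons with agar was not tested.

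Several values rested on agar replicate 3. The members' median relative to all tested genes, glucose versus agar, was 0.068 with that library and -0.066 without it. For agar versus standard it was -0.25 with it and -0.095 without it, while the unscaled median difference was 0.11 with it and 0.26 without it. The median over members of repeat 3 minus repeat 1 was -0.022 on glucose, -0.34 on agar and -0.25 on standard medium, on the log2 scale. A total of 40 of the 73 members were lower in repeat 3 than in repeat 1 on all 3 diets, against 29.6% of all tested genes.

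Counting error could be set beside this spread for some members. For 31 of the 55 members with a single annotated transcript the deposited values convert to whole reads in all 9 libraries, to within 0.001 reads. Their counts per library ran from 71 to 674 reads with a median of 248 reads, at which counting error alone gives a coefficient of variation of 6.35%. One read per kilobase was worth 0.0207 to 0.0287 RPKM, depending on the library.

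Position in the genome was described with the BDGP6.54 annotation. The members lie on all large arms, with 12 on 2L, 12 on 2R, 17 on 3L, 21 on 3R and 11 on X, and none on chromosome 4. A protein-coding neighbour read from the opposite strand began within 500 bases of the start of 52 of the 73 genes (71.2%), against 37.7% of 7674 tested protein-coding genes. Such head-to-head neighbours include Cdk1 beside mRpS7 and Prosbeta2, a proteasome subunit gene, beside mRpL39. A total of 43 members (58.9%) overlap another annotated gene, against 53.4% of tested protein-coding genes. Whether reads were counted by strand is not stated in any source used, so reads of overlapping genes cannot be told apart. Among the called members this touches mRpS28 (with CG10927), mRpS34 (with Golgin104), mRpS23 (with Polr2C), mRpL39 (with Zip71B), mRpS21 (with CG8870) and mRpL30 (with Torsin), and it also touches mRpS14 (with Naa15-16 and CG32533) and mRpL16 (with arm). mRpS7, mRpS11, mRpL54 and mRpL37 overlap no annotated gene.

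Other genes of mitochondrial gene expression were described from lists chosen by function. The counts higher than on standard medium are to be read against 23.1% of all tested genes on glucose and 38.2% on agar. Counts from the fit with the replicate block are to be read against 43.2% and 51.2%, in the same order. tko and bonsai encode the mitochondrial small-subunit proteins that correspond to bacterial S12 and S15, and both were tested. tko averaged 4.64 ± 0.527 RPKM on glucose, 3.33 ± 0.936 RPKM on agar and 4.26 ± 1.41 RPKM on standard medium, and it was called in no comparison. bonsai averaged 10.4 ± 1.17 RPKM on agar and 8.02 ± 0.395 RPKM on standard medium (SD, n = 3 each), a difference of 0.37 with a limma adjusted p of 0.0283. Neither gene was called on glucose relative to standard medium.

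Among the other steps of mitochondrial translation, 1 of 8 translation factors (12.5%) was called on agar relative to standard medium and none on glucose, and their median differences were 0.15 on agar and 0.16 on glucose. The called factor was the initiation factor mIF3, at 4.29 ± 0.682 RPKM on agar and 3.01 ± 0.272 RPKM on standard medium (adjusted p of 0.0229). Of 13 tested mitochondrial aminoacyl-tRNA synthetases, which charge the tRNAs used by this ribosome, 1 (7.69%), ArgRS-m, was higher on glucose and 9 (69.2%) were higher on agar, each against standard medium. With the replicate number as a block the synthetase counts were 4 on glucose and 11 on agar, and the factor counts 0 and 2. Their median difference from standard medium was 0.49 on agar and 0.29 on glucose, beside 0.36 and 0.33 for all tested genes. AspRS-m had the largest difference of those called, 0.63 on agar, with 6.72 ± 1.62 RPKM on agar and 4.28 ± 0.511 RPKM on standard medium (SD, n = 3 each; adjusted p of 0.0227).

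Of 12 genes of mitochondrial genome maintenance and transcription, 4 (33.3%) were higher on glucose and 7 (58.3%) on agar, each against standard medium, and with the replicate block 5 and 8 were. The mitochondrial DNA helicase (CG5924) averaged 2.78 ± 0.254 RPKM on glucose, 2.91 ± 0.530 RPKM on agar and 1.47 ± 0.337 RPKM on standard medium, with adjusted p of 0.0213 and 0.00936 for glucose and agar against standard medium. The mitochondrial RNA polymerase mtRNApol averaged 4.26 ± 0.386 RPKM on glucose, 3.62 ± 0.572 RPKM on agar and 2.87 ± 0.220 RPKM on standard medium, and passed for glucose against standard medium (adjusted p of 0.0264) but for agar only with the replicate block (adjusted p of 0.0905 without and 0.0176 with it). TFAM, which packages and transcribes mitochondrial DNA, averaged 6.85 ± 0.787, 6.35 ± 1.09 and 6.01 ± 1.26 RPKM on glucose, agar and standard medium and passed in no comparison (SD, n = 3 each). The median differences of this list were 0.33 on glucose and 0.34 on agar, level with those of all tested genes.

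Genes of mitochondrial import and of the respiratory chain had lower medians. The 15 import genes had a median difference from standard medium of 0.081 on both glucose and agar, and 2 of them (13.3%), Tim9a and Tim17b, were called higher on agar. The 60 tested nuclear genes of the respiratory chain and ATP synthase had medians of -0.17 on glucose and -0.25 on agar, and 1 gene, Cyt-c-p, was lower on both diets (adjusted p of 0.0424 on glucose and 0.00703 on agar). Cyt-c-p, the electron carrier cytochrome c, averaged 157 ± 11.4 RPKM on glucose, 132 ± 3.04 RPKM on agar and 207 ± 17.1 RPKM on standard medium (SD, n = 3 each). After scaling these 60 genes had medians of -0.49 and -0.61, against -0.15 and -0.25 for the 73 members.

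The 87 cytosolic ribosomal protein genes had a median difference from standard medium of 0.42 on glucose and 0.09 on agar, with 14 (16.1%) and 12 (13.8%) called higher, both below the shares of all tested genes. Between glucose and agar their median was 0.33, against 0.043 for the mitochondrial ribosomal protein genes, and no gene of either set was called in that comparison. In agar replicate 3 the cytosolic set stood -0.85 from the mean of agar replicates 1 and 2, and the respiratory set -0.52, beside -0.37 for the members. Of 19 genes of ribosome biogenesis, 4 (21.1%) were higher on glucose and 2 (10.5%) on agar relative to standard medium, and of 11 Myc and TOR growth regulators 5 (45.5%) were higher on glucose and 3 (27.3%) on agar. With the replicate block, 43.2% of all tested genes were higher on glucose and 51.2% on agar than on standard medium. Beside these shares, 27 and 15 cytosolic, 17 and 3 biogenesis and 9 and 6 growth regulator genes were higher on glucose and on agar. So were 1 import gene on glucose, 3 import genes on agar and 2 respiratory genes on agar. The block also gave 1 biogenesis gene lower on agar than on standard medium, where 384 of 8036 tested genes were lower. Between glucose and agar 3 biogenesis genes were higher on glucose, against 47 of the 8036. After median-ratio scaling without the block no gene of these lists was called higher in any comparison.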

How the data were processed

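The data are 9 mRNA libraries of whole guts, 3 per diet, with 1 deposited value per gene and library. The deposited values are log2 RPKM, computed by the authors. Per the submitters' processing notes, CASAVA 1.82, Bowtie2 2.1 and limma were used. The genome build, the annotation and the use of strand in counting were not given in the sources used here. For genes with 1 annotated transcript, low values step by whole reads in the form that limma's voom gives, with 0.5 added to each count and 1 to the library total. In each library 61.9% to 62.3% of these genes gave whole reads. RPKM values were obtained by raising 2 to the deposited value.

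A gene was tested where 3 or more libraries reached 1 RPKM, on the deposited log2 scale and without a further pseudocount, with limma 3.58.1 in R 4.3.3. Each diet had its own mean, all 9 libraries shared the estimate of spread with a variance trend, and p-values were adjusted by Benjamini-Hochberg over 8036 genes, with a threshold of 0.05. The 3 comparisons share libraries in pairs, so they are not independent of each other. Median-ratio scaling subtracts from each library the median deviation of the tested genes from their means. Tables and figures were made with Matplotlib 3.10.9, pandas 2.3.3 and NumPy 2.4.6 in Python 3.11.15. Tested on simulated data made from these libraries, the fit recovered 74%, 69% and 64% of 2-fold changes for glucose against agar, glucose against standard and agar against standard. In each case 200 of 8036 genes were changed, some by more than 2-fold, all with a mean log2 RPKM above 2. Values were drawn independently, without the correlation of same-numbered repeats or the shift against standard medium. Changes under 2-fold, the size seen in the called members, were not simulated.

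The name rule uses no measured value, but the group and the other lists were chosen with earlier results of these data known. The text names the called members (at most 10 in each direction), or the 4 with the smallest p where none was called, the 3 most positive and 3 most negative differences per comparison, the 6 highest and 6 lowest members, and a set fixed by role. mRpS29 entered by role. The members mRpL41, mRpL42, mRpS18A, mRpS18B, mRpS18C and those added by the block were named beyond this where they bear on a count. Of the 10245 gene names, 7878 matched a current symbol of the annotation, 2198 an older one, and 169 none.

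Same-numbered repeats deviated together: the correlation of their residuals across genes was 0.285 to 0.578, against -0.520 to 0.169 for other pairs across diets. Residuals cancel within each diet, so the negative values of other pairs follow in part from the positive ones. The numbers were taken to pair the samples, from the data and not from a statement in the labels. The fit with the replicate block is given beside the counts it moved. SEs, intervals and p-values of single genes are from the fit without the block unless stated. The block changes some of them, as for mRpL50 on agar against standard medium (limma adjusted p of 0.152 without and 0.0226 with it). The alternatives were other scalings, pseudocounts and filters, the block, library weights, the variance trend, fits to 6 libraries, and leaving out each library. A further 3 combinations were chosen after seeing the data. Promoter sequences were not analysed here.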

Additional observations from a re-analysis of the deposited data

How the results depend on the processing

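Scaling decided the direction against standard medium. For glucose versus standard the median member difference was -0.15 with median-ratio scaling and -0.14 with quantile normalization, in place of 0.17, and for agar versus standard it was -0.25 and -0.23 in place of 0.11, with 0 members called in each. The replicate block alone gave 10 and 16 called members in the 2 comparisons, and the replicate block with median-ratio scaling gave 0 and 2 (both lower), with medians of -0.15 and -0.25. Library weights gave 12 called for glucose versus standard, and a fit to only the 6 libraries compared gave 2 for agar versus standard. Leaving out 1 library at a time gave 0 to 6 called for glucose versus standard and 1 to 11 for agar versus standard. It gave a median for agar versus standard of 0.026 to 0.26, and medians relative to all genes of -0.066 to 0.15 for glucose versus agar and -0.32 to -0.095 for agar versus standard. With log2(RPKM + 5) the last was -0.084. In glucose versus agar no alternative called a member. The shares of all tested genes called with library weights, in fits to 6 libraries and without single libraries are not given here.

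The following 3 alternatives were chosen after seeing the data. Scaling without agar replicate 3 gave 1 called for glucose versus standard, mRpL53, which was lower (-0.40, adjusted p of 0.0443), and 0 for agar versus standard, medians of -0.15 and -0.097, and relative medians of -0.066 for glucose versus agar and -0.095 for agar versus standard. With standard replicate 1 as the only standard library, assumed to vary like the others, 0 were called in both, also after scaling, where the medians were -0.26 and -0.34.

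Some genes changed sign. For glucose versus standard, mRpS11 was -0.0074 and mRpL41 -0.14 with only standard replicate 1 and scaling, mRpL12 ran from -0.30 to 0.074 (without standard replicate 1) and mRpL55 from -0.16 to 0.090 (without glucose replicate 1) when 1 library was left out. For agar versus standard, median-ratio scaling with or without the replicate block, quantile normalization, scaling without agar replicate 3, and scaling with only standard replicate 1 gave -0.041, -0.033, -0.052 and -0.098 for mRpS11. The first, second and last of these gave -0.043, -0.033 and -0.053 for mRpL39. For mRpL30, median-ratio scaling with or without the block gave -0.015, scaling without agar replicate 3 gave -0.0026, and scaling with only standard replicate 1 gave -0.080. Scaling without agar replicate 3 gave -0.012 for mRpS21, -0.00017 for mRpL54 and -0.13 for mRpL33, and scaling with only standard replicate 1 gave -0.097 for mRpL54. The cause of these changes was not tested, beyond the scalings' removal of a shift shared by all genes. The design limits precision to 3 libraries per diet, with a median standard error of 0.16 on the log2 scale for a member's difference. In glucose versus agar the replicate block changed no call of a member.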
